A study of Homo sapiens with 6 samples.

Results

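The ribosomal protein pseudogenes were the 486 rows of a 21301-row gene table that carried the biotype pseudogene or transcribed_pseudogene and a symbol made of a ribosomal protein gene's name, the letter P and a number. They were grouped under the 70 genes named before that last P, called parents here, and every parent was itself a row of the table. The biotype transcribed_pseudogene held 20 of the 486 and pseudogene the other 466. No measured value entered this rule, but it was set with earlier results of these data known. RPSAP58, whose symbol has the same form, is annotated as protein-coding and was left out.

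The libraries were made from SH-SY5Y, an established human neuroblastoma cell line of sympathetic origin. The siControl group (3 libraries) received a control siRNA, and the siPSF group (3 libraries) received an siRNA against PSF (siPSF #2) at 10 nM; all 6 were collected 72 h later and carried no other treatment in the labels. Both groups came from 1 cell line and 1 siRNA against the target, so a change cannot be told apart from an effect of that siRNA on other transcripts. PSF, encoded by SFPQ, is a nuclear RNA-binding protein with roles in splicing and transcription. SFPQ stood at 372, 356 and 401 CPM (counts scaled to a common library size) in siControl and at 209, 193 and 165 CPM in siPSF, so the groups did not overlap, and its log2 fold change was -0.99 ± 0.10 (SE; edgeR quasi-likelihood test, adjusted p = 9.5e-05). Library totals ran from 101540520 to 132420931 counts. Of 10 sympathetic neuroblast markers, PHOX2A, HAND2, GATA3, ISL1, DBH and STMN2 stood above 50 FPKM in every library, while TH, the first enzyme of catecholamine synthesis, stood at no more than 0.315 FPKM. Of the astroglial and microglial markers only S100B and CX3CR1 had a row, at no more than 0.562 FPKM, and among the mesenchymal ones COL1A1 and COL1A2 stood at no more than 0.558 FPKM, PDGFRB at no more than 9.38 FPKM and TWIST1 at 93.4 to 125 FPKM.

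Ribosomal protein genes encode the protein part of the ribosome and are among the most strongly transcribed genes of any growing cell. Their short, abundant mRNAs have often been copied into DNA by the reverse transcriptase of LINE-1 elements and inserted elsewhere in the genome, which leaves processed pseudogenes: copies without introns or promoter, often with a poly(A) tract at the 3′ end. Most cannot make the protein, but a copy that is still close to its parent can be hard to separate from it with short reads.

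The sequences of 485 of the 486 could be read from the genome (GRCh38, positions from RefSeq; RPL36AP42 had no position), and they lay on 23 chromosomes, with 58 on chromosome 1. Their median length was 613 bases. In 448 of the 485 every parent exon junction within the alignment was joined without an intron, and in 243 a window of 20 bases near the 3′ end held at least 16 A. Identity to the parent's transcript ran from 74.6% to 100% with a median of 93.6%, and for all 485 the best match among the 70 parents was the one in the name. The whole coding sequence was covered in 428, the start codon was kept in 402, 278 carried at least 1 frameshift, and 120 kept an intact reading frame from start to stop.

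Reads were 50 bases long, so each pseudogene was also cut into all its 50-base words, and each word was looked for, without mismatch, in the rest of the genome and in the parent's spliced transcripts. A word found in the parent's transcripts is one that a 50-base read from either gene would match equally. The libraries were read in pairs, so the other read of a pair could still differ between the genes, which the words do not count. At least 1 such word occurred in 402 pseudogenes. The share of words found in the parent was over 50% in 53 pseudogenes, over 30 to 50% in 45, over 10 to 30% in 124, over 0 to 10% in 180, and 0% in 83. How the authors' pipeline placed a read that fits more than 1 position is not given in the sources used here.

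The start of the coding sequence shows this range. The windows cover the part of each pseudogene that aligned to coding bases 1 to 120 of its parent's main transcript, 5′ to 3′, and capitals mark bases that differ within the pair or have no partner. RPL21P16 (chr10:120355064-120355183, minus strand, GRCh38) matched RPL21 at every base of the window. RPS2P5 (chr12:118246084-118246203, plus strand) differed at 2 bases from RPS2 on chromosome 16. RPL7AP22 (chr2:158548425-158548544, plus strand) differed at 15 bases from RPL7A on chromosome 9. RPL10P7 (chr3:119636037-119636150, minus strand) covered the 120 bases of RPL10, on chromosome X, with 114 bases of its own, 17 of them different. They are shown because the fold change of the first 2 was close to the parent's and that of the last 2 was not.
RPL21P16: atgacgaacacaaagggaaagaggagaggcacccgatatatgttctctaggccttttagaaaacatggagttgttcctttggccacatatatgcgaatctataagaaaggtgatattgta
RPS2P5: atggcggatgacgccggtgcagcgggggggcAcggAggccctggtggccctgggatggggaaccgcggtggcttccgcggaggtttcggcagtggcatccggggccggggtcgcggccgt
RPS2: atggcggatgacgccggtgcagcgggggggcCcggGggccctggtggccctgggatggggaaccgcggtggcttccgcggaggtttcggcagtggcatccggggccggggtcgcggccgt
RPL7AP22: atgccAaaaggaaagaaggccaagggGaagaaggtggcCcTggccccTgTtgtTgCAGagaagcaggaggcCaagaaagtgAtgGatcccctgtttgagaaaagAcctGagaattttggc
RPL7A: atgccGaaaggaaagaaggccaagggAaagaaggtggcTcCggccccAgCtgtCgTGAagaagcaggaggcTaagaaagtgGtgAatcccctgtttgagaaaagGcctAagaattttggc
RPL10P7: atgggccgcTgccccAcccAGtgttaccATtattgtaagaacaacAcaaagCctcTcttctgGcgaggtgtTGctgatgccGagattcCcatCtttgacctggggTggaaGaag
RPL10: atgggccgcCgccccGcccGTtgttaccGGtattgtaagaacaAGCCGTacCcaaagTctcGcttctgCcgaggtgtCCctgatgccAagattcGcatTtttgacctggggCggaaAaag

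Most of the pseudogenes held few reads. The median over the 486 was 0.118 CPM as a mean of the 6 libraries, 103 reached 1 CPM, 34 reached 10 CPM and 4 reached 100 CPM. Per length, the median pseudogene stood at 0.0168% of its parent's FPKM, 373 stood under 0.1% of it and 445 under 1%. Over 10% were 7: RPL22P1 at 31.1%, RPL9P8 at 19.1%, RPS2P5 at 15.3%, RPL41P1 at 13.3%, RPS26P25 at 11.1%, RPL15P3 at 10.8% and RPL23AP42 at 10.2%. All 7 shared over 50% of their words with the parent. The 12 pseudogenes with the highest CPM took between 64.9% and 66.0% of the reads of all 486 in each library.

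**Figure D1:**
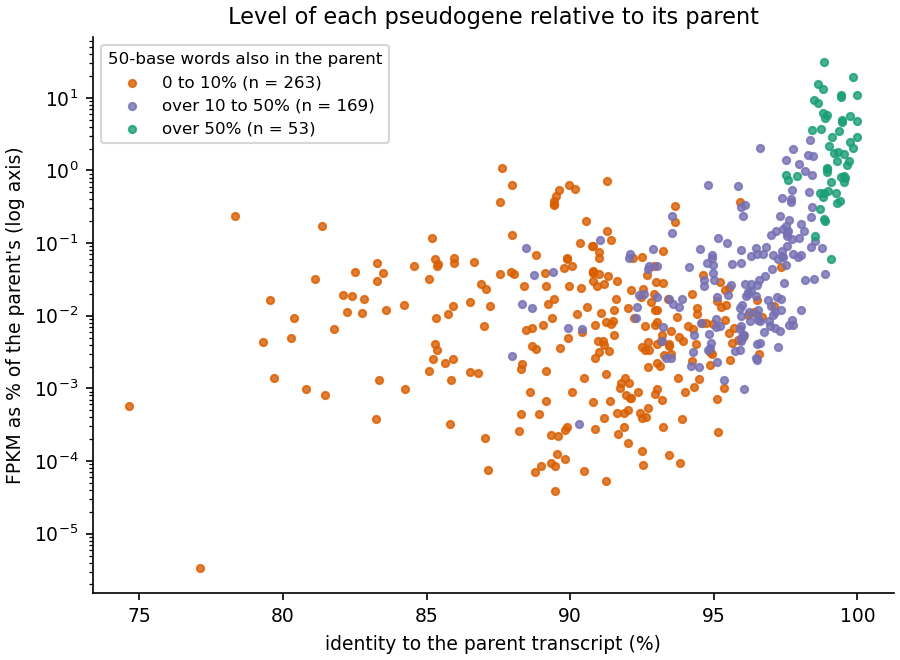
Each point is 1 of the 485 placed pseudogenes, with its identity to the parent's transcript in percent on the horizontal axis and its mean FPKM over the 6 libraries as a percentage of the parent's on a log vertical axis, coloured by the share of its 50-base words found in the parent. The 7 points above 10% lie at the right edge, at high identity, and values at a given identity scatter over several powers of 10.

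The level of a pseudogene went with its likeness to the parent and not with the parent's own level. Across the 485 placed pseudogenes the Spearman correlation of FPKM with identity was 0.50, and across all 486 that of pseudogene FPKM with parent FPKM was -0.04. These are descriptions over members of 70 families, which share parents, libraries and sequence. By words shared with the parent, the median FPKM stood at 0.0173% of the parent's at 0%, at 0.00437% at over 0 to 10%, at 0.0170% at over 10 to 30%, at 0.115% at over 30 to 50% and at 1.71% at over 50%.

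In siPSF the pseudogenes as a whole took more reads. Their counts summed to 1925, 1875 and 1527 CPM in siControl and to 2365, 2523 and 2764 CPM in siPSF, which is 1776 ± 217 against 2551 ± 201 (SD, n = 3), 1.44-fold. Every siPSF library lay above every siControl library, and siControl replicate 3 was the lowest of the 6. The exact two-sided permutation test gave p = 0.1, the smallest that 3 against 3 allows. The parents moved in the same order, from 71540, 69625 and 57779 CPM to 96379, 101868 and 106850 CPM, 1.53-fold. The pseudogenes thus held 2.69, 2.69 and 2.64 reads for every 100 reads of the parents in siControl and 2.45, 2.48 and 2.59 in siPSF, a ratio that fell by 0.0942 on the log2 scale (exact permutation p = 0.1). In poly(A) RNA from a bulk culture, more RNA per cell and more cells of a kind cannot be told apart, and these are shares of all reads and not amounts.

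Of the 486, 287 had enough reads for edgeR's filter and were tested; the other 199 had at most 0.104 CPM on average and a median count of 3 per library. At an adjusted p under 0.05, 70 of the 287 rose and 1 fell, together 24.7%, where 14.9% of all 19694 tested genes were called in either direction. In the higher direction alone the pseudogenes stood at 24.4% and all genes at 6.65%, and 8.27% of all genes were called lower. The median log2 fold change of the 287 was 0.52, that of all genes 0.01, and that of the 1411 other pseudogenes tested -0.01, of which 64 rose and 72 fell. At an unadjusted p under 0.05, 117 ribosomal protein pseudogenes were higher and 5 lower. The number called rested on single libraries: without siControl replicate 3 it was 32, and without siControl replicate 2 it was 36, of which 29 and 35 were among the 71, with no change of sign.

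The parents changed without exception. All 70 parents rose, by 0.38 to 0.95 on the log2 scale with a median of 0.63, and so did all 79 genes of a list of cytosolic ribosomal protein genes that contains them. Of 7 ribosomal protein paralogs with a reading frame of their own, 4 rose: RPL36AL by 0.75 ± 0.10, RPL22L1 by 0.63 ± 0.13, RPS27L by 0.56 ± 0.16 and RSL24D1 by 0.56 ± 0.12 (log2, SE). RPL26L1 (0.15 ± 0.09), RPL7L1 (-0.04 ± 0.15) and RPL39L (-0.08 ± 0.09) were not called.

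The pseudogenes with the most reads changed by nearly the same factor as their parents. RPS2P5, an intact copy of the gene for the small-subunit protein RPS2, on chromosome 12 within TAOK3 on the opposite strand, had 497, 479 and 385 CPM in siControl and 587, 625 and 678 CPM in siPSF, a log2 fold change of 0.47 ± 0.11 (SE; edgeR adjusted p = 0.0113), beside 0.53 ± 0.11 for RPS2. RPL9P8, a copy of the large-subunit gene RPL9, had 205, 200 and 178 CPM and then 258, 273 and 290 CPM, 0.50 ± 0.09 on the log2 scale (SE; edgeR adjusted p = 0.0029), beside 0.48 ± 0.10 for RPL9. The groups of both pseudogenes were apart, with siControl replicate 3 lowest and siPSF replicate 3 highest, the same order as in the summed parents. All of the 12 with the highest CPM were called higher, and all 12 lay within 0.1 of the parent's log2 fold change.

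The other 10 of those 12 covered the range that the parents covered. RPL15P3 (0.86 ± 0.13, RPL15 0.86), RPL23AP42 (0.84 ± 0.12, RPL23A 0.89) and RPL6P27 (0.79 ± 0.13, RPL6 0.80) are copies of large-subunit genes that rose strongly, and so did they. RPL39P3 (0.60, RPL39 0.51), RPL41P5 (0.53, RPL41 0.51) and RPL41P1 (0.46, RPL41 0.51) copy genes for very small large-subunit proteins. RPSAP19 (0.53, RPSA 0.48), RPSAP47 (0.42, RPSA 0.48), RPLP0P9 (0.50, RPLP0 0.46) and RPS2P46 (0.50, RPS2 0.53) stood lower with their parents. RPSAP47 lost its call without siControl replicate 2 or 3 or siPSF replicate 3.

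Pseudogenes with no base of their own in the aligned region behaved as their parents did, at lower counts. RPL36AP37, whose every 50-base word is in the transcripts of RPL36A, had 12.2, 11.7 and 8.46 CPM in siControl and 16.8, 17.0 and 21.1 CPM in siPSF, a log2 fold change of 0.76 ± 0.15 beside 0.78 ± 0.10 for RPL36A. RPL21P16, with nearly all of its words in RPL21, had 19.6, 18.9 and 15.3 CPM and then 24.6, 26.6 and 29.4 CPM, 0.59 ± 0.12 beside 0.63 ± 0.09. RPS26P25, chosen after its values were seen because all its words are in RPS26, had 14.3, 13.4 and 10.2 CPM and then 16.2, 17.4 and 19.04 CPM, 0.48 ± 0.13 beside 0.55 ± 0.11. In each of these 3 the highest siControl library lay below the lowest siPSF library.

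**Figure D2:**
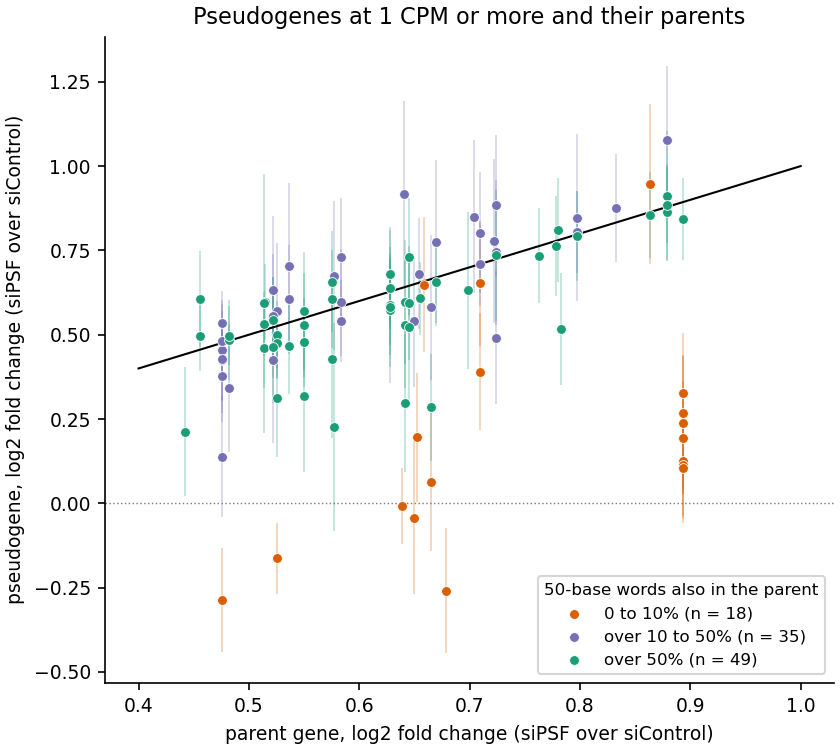
Log2 fold change of each pseudogene at 1 CPM or more (vertical axis, bars are ± 1 SE) against that of its parent (horizontal axis), coloured by the share of its 50-base words found in the parent's transcripts; the solid line marks equal change and the dotted line no change. Most points over 10% lie near the line of equal change, and most points at 0 to 10% lie below it, 5 of them under 0.

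The pseudogenes were also read by the share of words found in the parent, a grouping chosen after the values were seen. In the median, those with many shared words changed by about as much as the parent and those with few changed by less, with exceptions on both sides. All 53 pseudogenes with over 50% of their words in the parent were tested, and 36 of them rose, 0 fell and 53 had a log2 fold change above 0. Of all tested genes, 6.65% were called higher and 8.27% lower. At 1 CPM or more, 49 of these had a median log2 fold change of 0.58 and a median difference from the parent of -0.03, and 38 lay within 0.1 of the parent. Another 4 of the 49 lay more than 0.25 below the parent, with a lowest difference of -0.38. At over 30 to 50% of words, 24 pseudogenes at 1 CPM or more had medians of 0.62 and 0.03, and 17 lay within 0.1. At over 10 to 30%, 11 had medians of 0.58 and 0.02, and 6 lay within 0.1 and 1 more than 0.25 below the parent.

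Below 10% the picture was different. The 12 pseudogenes at 1 CPM or more with over 0 to 10% of their words in the parent had a median log2 fold change of 0.19 and a median difference from the parent of -0.61. Of the 12, 9 lay more than 0.25 below the parent and 3 within 0.1 of it. Of these 12, 3 were called higher, where 6.65% of all tested genes were, and the highest log2 fold change was 0.95. The 6 with no shared word had medians of 0.04 and -0.69, from -0.29 to 0.33, and all 6 lay more than 0.25 below the parent, with none called. Across pseudogenes at 1 CPM or more the Spearman correlation of a pseudogene's log2 fold change with its parent's was 0.72 for the 84 with over 10% of words shared, 0.47 for the 18 with 10% or less, and 0.34 over all 103. These points share parents, libraries and, by construction of the grouping, sequence.

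**Figure D3:**
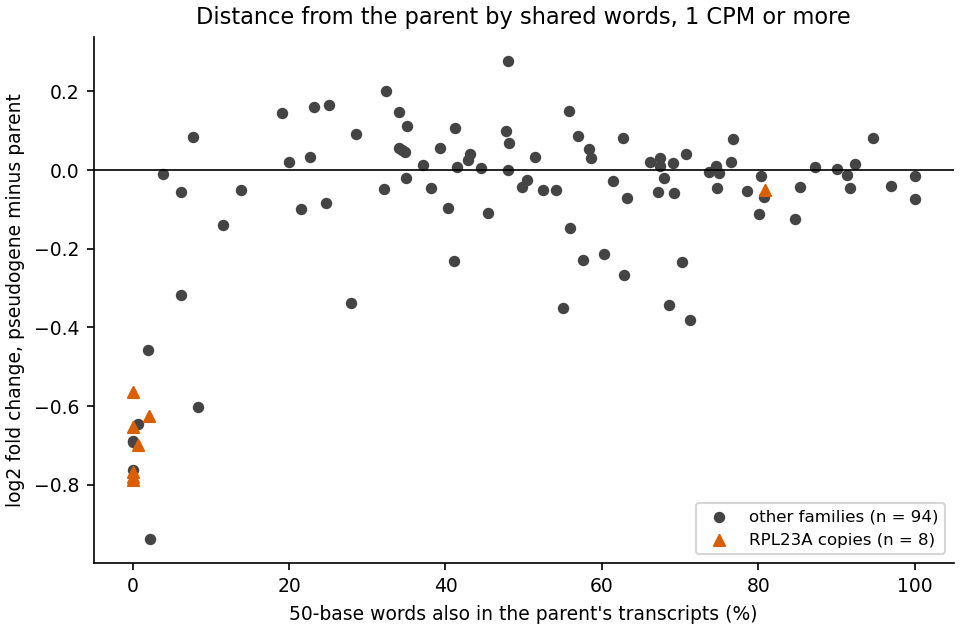
Difference in log2 fold change between each pseudogene at 1 CPM or more and its parent (vertical axis) against the percentage of its 50-base words found in the parent's transcripts (horizontal axis), with copies of RPL23A as triangles. At 0% all points lie between -0.77 and -0.56, and above 10% most lie within 0.1 of 0; the RPL23A copy at 80.9%, RPL23AP42, lies with the latter.

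The summed reads of the same classes showed it library by library. Pseudogenes with no shared word summed to 51.5, 52.7 and 55.0 CPM in siControl and 59.3, 60.5 and 59.0 CPM in siPSF, 1.12-fold, and those with over 0 to 10% to 44.5, 47.9 and 47.2 CPM against 54.6, 55.1 and 50.5 CPM, 1.15-fold. Those with over 50% summed to 1552, 1503 and 1209 CPM against 1915, 2036 and 2240 CPM, 1.45-fold. The classes at over 10 to 30% and over 30 to 50% rose 1.42-fold and 1.49-fold. The groups were apart in all 5 classes, with an exact permutation p of 0.1 in each. siControl replicate 3 was the lowest library in the 3 classes above 10%, as in the parents, but the highest siControl library in the class with no shared word. Most of the rise in the class with no shared word came from a single member, RPL23AP53, whose values are given below. The siControl CPM of RPL23AP53 was also highest in replicate 3, and the class was not summed without it, so its sums do not describe its members in general.

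**Figure D4:**
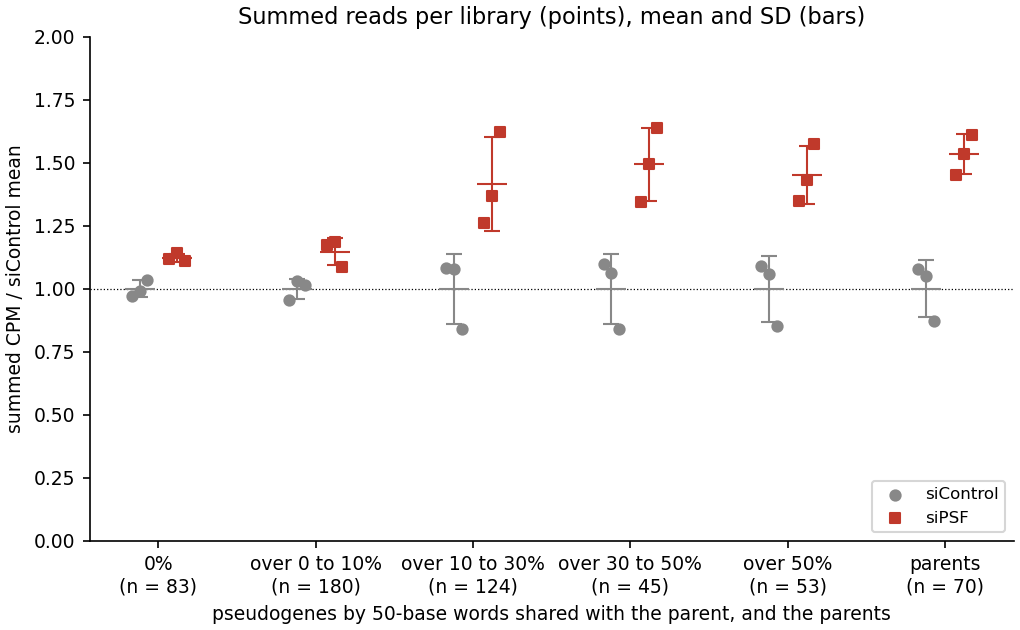
Summed CPM of the pseudogenes in each library, divided by the siControl mean, for 5 classes by the share of 50-base words found in the parent and for the 70 parents; points are libraries and bars the mean ± SD of 3. The 3 classes above 10% have siPSF means of 1.42, 1.49 and 1.45 and the parents 1.53, while the 2 lowest classes have siPSF means of 1.12 and 1.15.

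Copies of 1 parent could differ, as in the RPS2 family. RPS2P32 (chromosome 7; 87.6% identity, 0% of words in RPS2, 6 frameshifts), named after its values were seen, had 15.5, 15.6 and 13.6 CPM in siControl and 12.9, 13.7 and 13.3 CPM in siPSF, a log2 fold change of -0.16 ± 0.10 (SE; edgeR adjusted p = 0.329). The groups overlapped. The log2 ratio of RPS2P32 to RPS2 moved by -0.69 between the groups and that of RPS2P5 to RPS2 by -0.05, each with an exact permutation p of 0.1. RPL32P3, a spliced transcribed pseudogene that overlaps the snoRNA gene SNORA7B and was also picked after its values were seen, had 10.3, 11.0 and 11.8 CPM and then 10.7, 11.9 and 10.3 CPM, -0.01 ± 0.11 (edgeR adjusted p = 0.977), while RPL32 rose by 0.64.

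**Figure D5:**
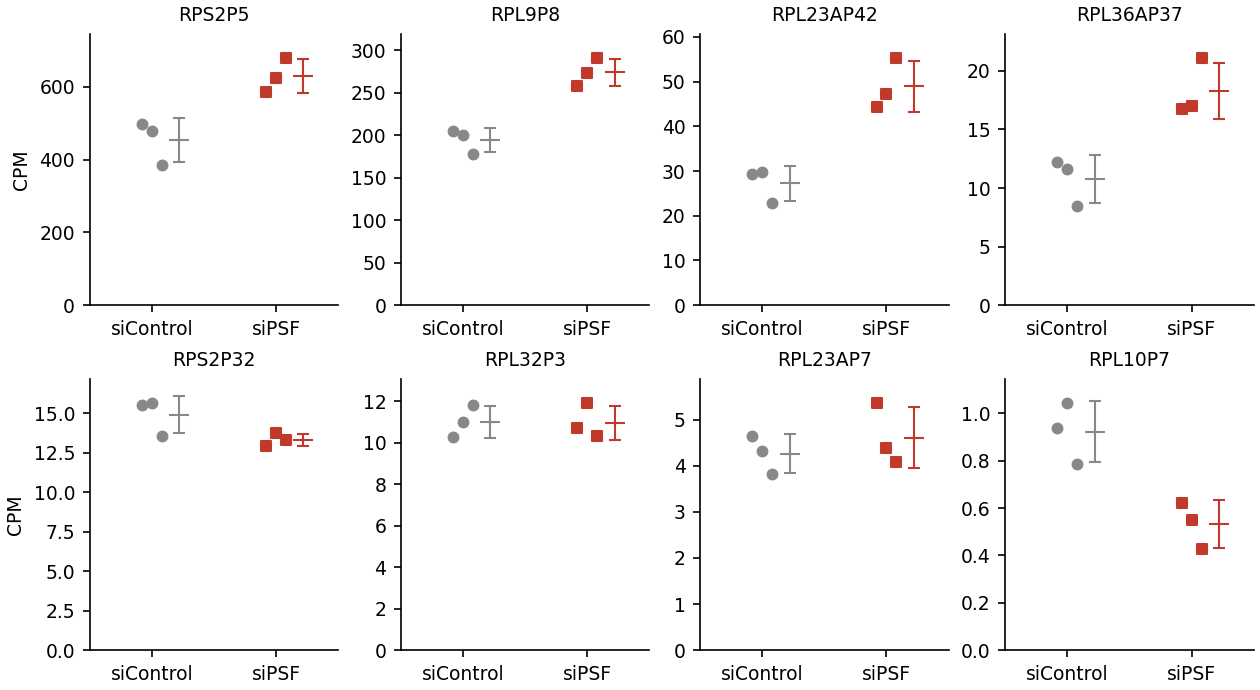
CPM of 8 pseudogenes in the 3 siControl (grey circles) and 3 siPSF (red squares) libraries, with the mean ± SD beside the points and each axis starting at 0. In the upper row, with over 50% of words in the parent, the groups are apart; in the lower row RPS2P32, RPL32P3 and RPL23AP7 overlap between groups and RPL10P7 is lower in siPSF.

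The RPL23A family, with 27 listed copies, stood furthest from its parent among the 5 families with the most copies, by the median of the tested copies. RPL23A, which encodes a large-subunit protein near the exit of the nascent chain, rose by 0.89 ± 0.11, from 508, 491 and 405 CPM to 819, 833 and 957 CPM. Of its 23 tested copies 2 rose, where 6.65% of all tested genes were called higher. The median log2 fold change of the 23 was 0.28. A group of 13 copies, among them RPL23AP7, RPL23AP21, RPL23AP4, RPL23AP79 and RPL23AP82, had 89.4% to 91.0% identity to RPL23A and at most 0.625% of their words in its transcripts. In 10 of the 13 every word recurs elsewhere in the genome, and in RPL23AP7, RPL23AP82 and RPL23AP87 21.0%, 31.2% and 10.5% of the words do not. All 13 were tested and none was called by edgeR; their log2 fold changes ran from 0.10 to 0.36 with a median of 0.24. The group was picked after its values were seen.

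RPL23AP7, the one with the most reads among these, had 4.65, 4.32 and 3.83 CPM in siControl and 5.35, 4.39 and 4.09 CPM in siPSF, and the groups overlapped. RPL23AP53, on chromosome 8 and also picked after its values were seen, with 0% of words in RPL23A and the highest CPM of any pseudogene without a shared word, had 19.6, 21.0 and 25.7 CPM and then 27.5, 28.6 and 27.1 CPM. Its groups were apart, and its log2 fold change of 0.33 ± 0.11 missed the threshold (edgeR adjusted p = 0.0659) except without siControl replicate 3 (0.0204). RPL23AP53 overlaps an exon of ZNF596 on the opposite strand, and ZNF596 rose by 0.37 on the log2 scale (edgeR adjusted p = 0.0324). Whether reads of ZNF596 were counted for RPL23AP53 was not tested. The family's other extreme was RPL23AP42, 99.4% identical, with 29.4, 29.7 and 22.8 CPM and then 44.4, 47.1 and 55.2 CPM.

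In the other 4 of these families a minority of the listed copies was called, where 6.65% of all tested genes were called higher. RPL21 had 34 listed copies, 19 tested and 6 called higher, and the 6 included all 5 copies with over 50% of words in RPL21. RPSA, which encodes a small-subunit protein also known as the laminin receptor, had 27, 17 and 3. RPS3A had 23, 8 and 1, the 1 being RPS3AP6 (0.54, RPS3A 0.52), named for that count after its values were seen. RPS2 had 22, 11 and 2, RPS2P5 and RPS2P46, and its copies held 20.1 reads for every 100 of the parent in siControl and 19.3 in siPSF, the most of these 5 families.

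A few pseudogenes changed in ways the parent did not. The 1 called lower was RPL10P7, with no word in RPL10 and 2 frameshifts. It had 0.937, 1.04 and 0.786 CPM in siControl and 0.623, 0.549 and 0.426 CPM in siPSF, so that its groups were apart. Its log2 fold change of -0.79 ± 0.24 was just inside the threshold (edgeR adjusted p = 0.0486) and was outside it when any 1 of the 6 libraries was left out, from 0.0656 to 0.171. RPL10 itself rose by 0.53. Among tested pseudogenes with a mean of at least 0.5 CPM, the next largest falls, RPS3AP38 (-0.39 ± 0.21), RPL32P16 (-0.33 ± 0.34), RPSAP41 (-0.29 ± 0.15) and RPL23P2 (-0.26 ± 0.19), were not called. RPL32P16 lies within MTHFD1L on the same strand, and MTHFD1L fell by 0.74 on the log2 scale (edgeR adjusted p = 0.000257). RPS3AP38 lies within HERC4 on the same strand (-0.11) and RPSAP41 within KHDC1 on the opposite strand (-0.27). Neither HERC4 nor KHDC1 was called, and a link between pseudogene and host was not tested.

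The largest rise was that of RPL7AP22, which has no word in RPL7A and 8 frameshifts and lies on the same strand in an intron of PKP4, the gene of a plakophilin-related junction protein. It had 1, 6 and 9 counts in siControl and 63, 62 and 118 in siPSF, or 0.00822, 0.0450 and 0.0715 CPM against 0.530, 0.587 and 1.20 CPM. The groups were far apart. The fitted log2 fold change of 4.16 ± 0.53 (SE; edgeR adjusted p = 0.00041) rests on few counts in siControl, and it stayed between 3.70 and 4.76 and called with each library left out. RPL7AP22 passed edgeR's filter only through its siPSF libraries, the group where it is high. The p-value and the refits are therefore descriptions and no independent support. PKP4 fell by 0.42 on the log2 scale (edgeR adjusted p = 0.0144), and RPL7A rose by 0.71.

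The other 4 called pseudogenes with no word in the parent were also in low counts. RPL21P83 rose by 1.98 ± 0.48, RPL4P6 by 1.64 ± 0.41, RPS20P13 by 1.52 ± 0.44 and RPS20P22 by 1.38 ± 0.34, each further than its parent. Their means lay between 0.0997 and 0.363 CPM, and each lost its call in at least 3 of the 6 fits that leave out 1 library. At such levels the filter can be passed through the siPSF libraries alone, and this was not checked for each. RPL21P83 lies in an intron of POLR1E on the opposite strand, and POLR1E rose by 0.47 on the log2 scale (edgeR adjusted p = 0.00697). RPL4P6 overlaps an exon of MRTFA and RPS20P22 lies in an intron of FGFR1, both on the same strand, and neither of these host genes was called (-0.22 and -0.14). RPS20P13 overlaps no other annotated gene. The 4 were named because the count is small and not by the rule for named genes.

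Among pseudogenes of at least 0.5 CPM, the largest rises were those of RPL15P7 (1.18 ± 0.34), RPL4P5 (1.08 ± 0.25), RPL7P32 (1.08 ± 0.22), RPS20P27 (0.97 ± 0.23) and RPL15P5 (0.95 ± 0.24). Their parents rose by 0.86 (RPL15), 0.83 (RPL4), 0.88 (RPL7) and 0.48 (RPS20). RPL7P32 kept its call with each library left out. RPL4P5 and RPS20P27 lost it without siControl replicate 3, RPL15P5 without siControl replicate 2 or 3, and RPL15P7 in 4 of 6 such fits. RPS20P27 overlaps an exon of RSF1 on the same strand, and RSF1 stood at -0.22 and was not called.

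At the threshold, the members just inside were RPS14P3 (adjusted p = 0.0478), RPL10P7 (0.0486) and RPL18AP6 (0.0496), and those just outside were RPS13P2 (0.0504), RPS27P19 (0.0548) and RPS25P6 (0.0550), by edgeR's quasi-likelihood test. Over all 486, without regard to the filter, every siPSF library lay above every siControl library in 184 (37.9%, where all rows gave 17.1%) and below in 11.

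Position and reading frame were compared as properties that the names do not hold. The sequence overlapped another annotated gene in 262 of the 486 and a protein-coding gene in 204. Among 115 pairs of a tested pseudogene inside a protein-coding gene and that host, the median log2 fold change was 0.56 for the pseudogene and -0.08 for the host. The pseudogene rose in 30 pairs, where one inside more than 1 host counts once for each. Counted once each, 32 of 120 tested pseudogenes that overlap a protein-coding gene rose, 26.7%, beside 24.4% of all 287 and 6.65% of all genes. The Spearman correlation with the host's log2 fold change was -0.10 and with the parent's 0.27 over the same 115 pairs. Pairs on the same strand (56) had a median of 0.43 and pairs on opposite strands (59) 0.60 for the pseudogene. Of the 120 with an intact frame 97 were tested and 43 rose; of the 365 without 189 were tested and 27 rose. An intact frame goes with high identity to the parent, and the parts of each in these counts were not separated.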

How the data were processed

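Members, gene lists and the grouping by shared words were chosen with earlier results of these data known. The authors deposited 1 table with read counts and FPKM values per gene and library. For these counts and FPKM values the authors' methods name poly(A) libraries read as 50-base pairs on a NovaSeq, rRNA removal with Bowtie 2, mapping to hg38 with TopHat and tag counting on RefSeq, while the submitters' processing notes name Trimmomatic, HISAT2 2.1.0 and StringTie 2.1.3b with GRCh38. These differ, and strand use and the treatment of reads with several positions are not given in the sources used here. Every row had a count of at least 1 in every library. The study describes the 3 samples per group as biological triplicates.

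CPM used edgeR's TMM factors. All 19694 rows that passed filterByExpr were fitted with edgeR 4.0.16 (R 4.3.3; quasi-likelihood test, 3 siPSF against 3 siControl libraries, no block), with Benjamini-Hochberg adjustment over all of them and a threshold of 0.05. Fold changes are log2, siPSF over siControl. The biological coefficient of variation was 12.6%, and replicate pairs differed by more than sampling noise (chi-square per degree of freedom of 22.6 or more). The fit was tested on simulated counts. Identity came from blastn 2.17.0 against GENCODE transcripts, reading frames from a Biopython 1.88 alignment, and words from an exact search of both strands of hg38. Single values were compared by exact two-sided permutation tests.

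The rule for named genes covered SFPQ, the 12 members with the highest CPM, the called members with the 25 smallest p, the 5 largest rises and falls at a mean of at least 0.5 CPM, the 5 parents with the most copies, the 3 members on each side of the threshold, and host genes. Genes named outside the rule are marked. Not every member among the 25 smallest p, and not every host gene, is described above. The replicate numbers were not used to pair the libraries in the main fit. Alternatives were DESeq2 1.42.0, its size factors, other filters, limma 3.58.1 on log2(FPKM + 0.5) and log2(FPKM + 0.1), FPKM rescaled to equal sums, the replicate block, and leaving out each library. 1 further marker gene and 1 further sequence window are not reported here.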

Additional observations from a re-analysis of the deposited data

How the results depend on the processing

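The count of called pseudogenes was 71 of 287, and 56 to 87 under the DESeq2 size factors, DESeq2 Wald test, other filters and limma on FPKM. The number tested differed, so the share called varied far more than the count. It was 60 of 103 at a mean of at least 1 CPM, 57 of 486 without a filter and 87 of 280 by the DESeq2 Wald test. Limma called 64 of 150 on log2(FPKM + 0.5), 75 of 301 on log2(FPKM + 0.1) and 56 of 150 on rescaled FPKM. Leaving out 1 library gave 32 to 69 called, 31 to 69 higher and 0 to 2 lower; the 32 was without siControl replicate 3 and the 36 without siControl replicate 2. Fewer libraries were fitted there, and the cause of the difference between libraries was not tested. At a mean of at least 1 CPM there were 0 lower calls, because that filter leaves out RPL10P7 before the fit. At that filter 0 members were lower at an unadjusted p under 0.05 by edgeR. The lower calls were 3 by limma on log2(FPKM + 0.1) and 5 on rescaled FPKM, a scaling that put the median of all genes at -0.16. On rescaled FPKM the median log2 fold change of the pseudogenes was 0.29. The median difference from the parent was -0.06, -0.14 by limma on log2(FPKM + 0.1), and -0.12 to -0.05 without 1 library; the cause was not tested. Alternatives added after seeing the data kept members by words found nowhere else in the genome: with over 50% of such words 26 of 194 were called, and for the 7 with over 90% (also not in the parent's transcripts) at 1 CPM or more the median log2 fold change was -0.043 and the median difference -0.69. Between 68 and 70 parents were called under every alternative.

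With the replicate block, 49 pseudogenes were called, 49 higher and 0 lower (4 lower at an unadjusted p under 0.05). Same-numbered libraries deviated together by correlations of -0.02, 0.06 and 0.06. Libraries of unlike number ranged from -0.12 to 0.07, and a shared batch was not tested. Over the named genes, 699 values kept direction and side of the threshold, 44 lost and 15 gained the call, and none reversed. Members under 1 CPM hold few counts, and changes there were detectable only when large.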
